A study of Homo sapiens with 35 samples.

Results

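The 32 genes described here encode the enzymes and carriers that activate fatty acids and break them down by β-oxidation in mitochondria and peroxisomes. They were chosen by the function of the encoded protein, with earlier results of these data known. They comprised 23 mitochondrial proteins, 5 peroxisomal enzymes and 4 long-chain acyl-CoA synthetases. All 32 were found among the 19665 protein-coding entries of the count table, and all 32 were among the 17999 entries with a count in at least 1 library, which were tested. Each member had a single protein-coding entry, identified by its symbol.

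The samples were RPMI-8226 cells, an established human multiple myeloma line derived from malignant plasma cells. Every culture received the same treatment, a 1 h pulse of 750 nM carfilzomib, an irreversible proteasome inhibitor used against myeloma, except that the day 0 cells, which the sample labels also list under the drug, were collected before it was added. Bulk RNA sequencing was carried out on days 0, 1, 2, 4, 6, 8 and 10, with 5 subcultures (replicates 1 to 5) a day and 35 libraries in all. The subcultures were split from 1 expanded culture of a single line, so that the tests below measured the spread between subcultures and not between independent lines. No library of an untreated culture from a later day was analysed here, so time in culture, medium changes and the drug cannot be told apart. In bulk RNA, a change in the share of cells of a kind cannot be told apart from a change in RNA per cell.

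In β-oxidation, an acyl-CoA synthetase first joins a fatty acid to coenzyme A. Carnitine palmitoyltransferases and the carnitine-acylcarnitine carrier then move the acyl group into the mitochondrial matrix, where acyl-CoA dehydrogenases, hydratases, hydroxyacyl-CoA dehydrogenases and thiolases shorten it round by round and pass electrons to the respiratory chain through the electron transfer flavoprotein. Peroxisomes run a parallel pathway for very long, branched and other unusual acyl chains, and plasma cells, which secrete large amounts of antibody, can use both fatty acids and glucose as fuel.

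Libraries held 6519392 to 10962890 estimated counts (median 7643975). The summed level of 8 plasma cell markers was 1308 to 2343 CPM in every library, against at most 16.9 CPM for B cell, 4.81 CPM for T cell, 2.21 CPM for monocyte, 1.58 CPM for stromal and 6.06 CPM for erythroid marker lists. CPM, the count scaled to a common library size, was computed over protein-coding counts after TMM scaling. Fold changes are on the log2 scale with their standard error (SE). A gene was called where Q, the p-value of edgeR's quasi-likelihood test after Benjamini-Hochberg adjustment over the 17999 entries, was at most 0.05, whatever the fold change.

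On day 0, the levels of the members ranged over more than 2 orders of magnitude when divided by the length of the canonical transcript. HSD17B10, a mitochondrial dehydrogenase that is also a subunit of mitochondrial RNase P, had the highest level at 108 ± 4.06 CPM per kb (SD, n = 5). It was followed by the enoyl-CoA isomerase ECI1 at 68.4 ± 4.02, the very-long-chain dehydrogenase ACADVL at 53.8 ± 4.10 and the electron transfer flavoprotein subunits ETFB at 49.1 ± 5.03 and ETFA at 41.1 ± 4.05 CPM per kb. The lowest levels belonged to ECI2 at 2.03 ± 0.275, ACADS at 0.732 ± 0.336 and EHHADH at 0.479 ± 0.111 CPM per kb. Of the 31 pairs of neighbours in this order, 24 were closer to each other than the sum of their SDs, among them ETFB and ETFA, and HADHB and HADHA. The 3 lowest members rested on few reads, with 12 to 55 counts a library for ECI2, 7 to 26 for EHHADH and 0 to 12 for ACADS.

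More members rose than fell on every day after the pulse. On day 1, 15 of 32 members were higher and 6 were lower than on day 0, where 25.4% of all entries tested were higher and 27.3% were lower. Day 2 had the most, with 19 higher (59.4%, against 23.2% of all entries) and 6 lower (18.8%, against 24.4%). The counts were 17 and 6 on day 4 (19% and 20.1% of all entries), 10 and 6 on day 6 (17.5% and 17%), 11 and 3 on day 8 (18.2% and 18.6%), and 12 and 3 on day 10 (16.1% and 15.8%). Since well-covered entries were called more often, the same shares over the 12301 entries that passed a filter on low counts are also of use. They were 36.1% higher and 34.8% lower on day 1, 33.1% and 31.7% on day 2, and 23.1% and 21.6% on day 10. Of the same 12301 entries, 3326 were higher and 3320 lower on day 4, 3050 and 2853 on day 6, and 3186 and 3052 on day 8. All 5 libraries of a day lay above all 5 of day 0 for 14 members on day 1, 17 on day 2 and 9 on day 10, and below them for 5, 2 and 3 (20.8%, 18.5% and 11.3% of all entries above, 20.1%, 18.2% and 11.5% below). Scaling by library size without factors gave well-covered entries a median log2 fold change of 0.12, 0.13 and 0.11 on days 1, 2 and 4, and there were 20 higher and 3 lower members on day 2, 19 and 3 on day 4, and 12 and 4 on day 6. The 6 lower on day 4 were 3 without day 0 replicate 1. The 6 comparisons share the day 0 libraries and are not independent of each other.

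The changes were mostly below 2-fold. The median log2 fold changes of the 32 members against day 0 were 0.18, 0.41, 0.28, 0.12, 0.16 and 0.17 in order of days, beside medians of -0.06 to 0 over all entries tested. Past 2-fold, 4 members were higher and 3 lower on day 1, where 7.27% and 13.2% of all entries were. Day 2 had 3 and 2 such members (6.32% and 8.94%), and day 10 had 2 and 0 (2.41% and 3.52%). A test over the whole time course called 27 of 32 members, against 64.7% of all entries. The exceptions were CPT2, ACADM, ACAD8, ETFDH and EHHADH. No share over the 12301 entries that passed the filter on low counts was computed for this test. Whether the members were called more often than such entries cannot be read from it.

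**Figure D1:**
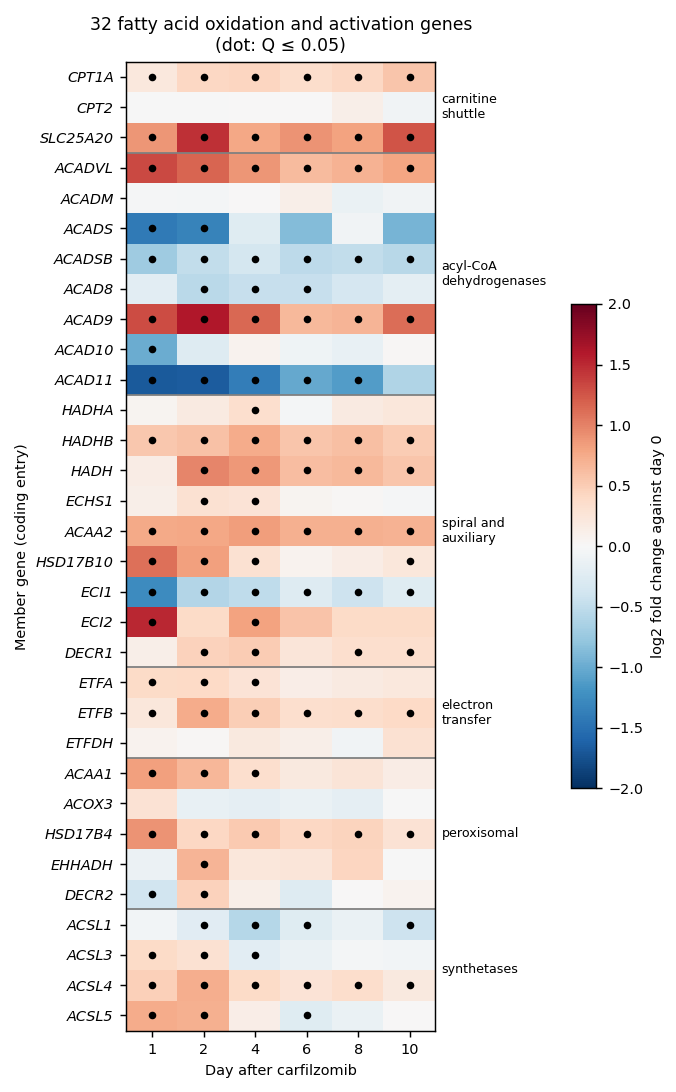
Log2 fold change against day 0 (colour) of the 32 members (rows, by class) on days 1 to 10 (columns); dots mark Q at or below 0.05. The 9 members higher on all 6 days and the 2 lower on all 6 days form rows of 1 colour, and 3 of the 4 synthetases are higher on days 1 and 2 and mixed afterwards.

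A set of 9 members was higher than on day 0 on all 6 later days. These were the carnitine palmitoyltransferase CPT1A, the carnitine-acylcarnitine carrier SLC25A20, the dehydrogenases ACADVL and ACAD9, the thiolase subunits ACAA2 and HADHB, the electron transfer subunit ETFB, the peroxisomal enzyme HSD17B4 and the synthetase ACSL4. The dehydrogenase ACADSB and the isomerase ECI1 were lower on all 6. Altogether 18 members were called higher on at least 1 day and lower on none, 7 were lower on at least 1 day and higher on none, and ACSL3, ACSL5 and DECR2 were higher on some days and lower on others. CPT2, ACADM, ETFDH and ACOX3 were not called against day 0 on any day. The share of all entries with each of these patterns was not computed, so the counts describe the members alone. Most members had their highest mean early, 8 on day 1 and 9 on day 2, whereas CPT1A and ETFDH had theirs on day 10.

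The classes followed different courses. Of the 23 mitochondrial members, 12 were higher and 5 lower on day 2, and 10 were higher and 2 lower on day 10. Of the 5 peroxisomal members, 4 were higher on day 2 but 1, HSD17B4, on day 10. Of the 4 synthetases, 3 were higher on days 1 and 2, whereas 1 was higher and 2 were lower on day 4, and 1 was higher and 1 lower on day 10. In the libraries, the median member of the mitochondrial class stood 0.33 ± 0.10 above its day 0 mean on day 2 (log2 CPM, mean ± SD over 5 libraries) and 0.25 ± 0.11 above on day 10. The corresponding values were 0.47 ± 0.11 and 0.14 ± 0.12 for the peroxisomal class, and 0.50 ± 0.03 and -0.03 ± 0.15 for the synthetases. These medians are descriptions of 23, 5 and 4 genes, and the difference between classes was not tested.

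**Figure D2:**
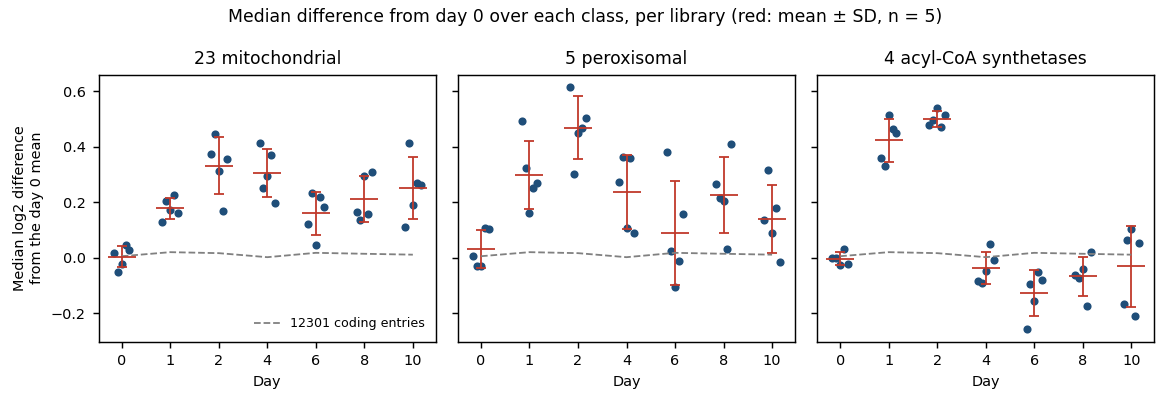
Median over the members of each class of the log2 CPM difference from the day 0 mean (vertical axis) by day (horizontal axis); points are libraries, red marks the mean and SD of 5 libraries, and the dashed line is the median of 12301 protein-coding entries. The synthetase libraries lie above day 0 on days 1 and 2 and all below it on day 6, and overlap it on days 4, 8 and 10, while the mean of the mitochondrial class stays above it.

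Of the carnitine shuttle, the coding entries of the first and second step were higher on all 6 days and that of the last was not called. CPT1A, which sits in the outer mitochondrial membrane and is held to set the rate of entry, measured 148, 142, 146, 148 and 149.6 CPM in the 5 day 0 libraries. It measured 190.0, 199, 194, 200.5 and 194 on day 2 and 224, 199.9, 219, 209 and 218 on day 10. All 30 later libraries lay above the highest day 0 library, and day 10 had the highest mean of all days, 1.46-fold that of day 0 (log2 fold change 0.55, SE 0.047, edgeR Q = 1.71e-12). SLC25A20, the carrier that exchanges acylcarnitine for carnitine across the inner membrane (chromosome 3, 48856926 to 48898904, minus strand, GRCh38), showed the larger change. Its libraries read 29, 22.9, 26.8, 27.9 and 28.9 CPM on day 0, 46.3, 48.8, 55.7, 56.9 and 42.3 on day 1, 75.1, 72.5, 76.7, 77.7 and 69.7 on day 2, 45, 47.1, 52.1, 50.1 and 58.6 on day 6 and 69.3, 59.5, 65.7, 62.5 and 68.2 on day 10. Days 4 and 8 stood in between, at 40.5, 45.6, 50.4, 50.7 and 42.8 and 44.7, 47.8, 49.7, 47.9 and 45.4 CPM. No later library reached down to those of day 0. The log2 fold change was highest on day 2 (1.46, SE 0.081, 2.75-fold, edgeR Q = 4.41e-19), fell back to 0.77 by day 4 and stood at 1.26 (2.4-fold) on day 10. CPT2, which hands the acyl group back to coenzyme A in the matrix, read 35.2, 44.1, 38.6, 36.7 and 48.7 CPM on day 0, 36, 46.4, 41.8, 36.2 and 40.4 on day 2 and 39.9, 36.8, 40.5, 38.4 and 38.5 on day 10. Its day 0 libraries overlapped those of every later day and its log2 fold changes ran from -0.06 to 0.12, none of them called. The libraries of days 1, 4, 6 and 8 read 41.8, 33.2, 39.6, 43.7 and 43.6, 47, 31.1, 46.8, 48.6 and 30.9, 33, 47.1, 42.3, 44.9 and 37.9 and 32.5, 45.4, 49.6, 43.8 and 49.4 CPM in turn. With its transcript classes summed (described further on), CPT2 was called higher on days 4 and 8 (0.21 and 0.23).

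The acyl-CoA dehydrogenases, which open each round of β-oxidation, moved in opposite directions. Of the 8, ACADVL and ACAD9 rose while ACAD11, ACADS, ACADSB and ACAD10 fell on day 1. ACADVL, the very-long-chain enzyme bound to the inner membrane (chromosome 17, 7217125 to 7225266, plus strand), measured 107, 124, 109, 127 and 119.5 CPM on day 0 and 282, 307, 281, 302 and 292 on day 1. It measured 257, 265, 276, 242 and 269 CPM on day 2, 223, 208, 224, 209.9 and 212 on day 4 and 178, 192, 186, 205 and 192 on day 8. It remained at 183, 196, 174, 186 and 167 CPM on day 6 and 188, 217, 214, 190.3 and 202 on day 10. Every library after the pulse was above every day 0 library. The log2 fold change of the coding entry was 1.32 on day 1 (SE 0.055, 2.49-fold, edgeR Q = 1.99e-23), its lowest later value was 0.63 on day 6, and it was 0.79 on day 10. Summed over its transcript classes (described further on), ACADVL rose by 1.34 on day 1. The later summed rises were smaller than those of the coding entry, though still called. They were 0.69 (day 2), 0.41 (day 4), 0.34 (day 6), 0.28 (day 8) and 0.45 (day 10). The coding share of its counts was 47.9% on day 0, 69.0% on day 2 and 62.3% on day 10. ACAD9, which also serves as an assembly factor of respiratory complex I, rose from 9.42, 7.3, 8.76, 9.22 and 6.35 CPM to 21.3, 21.9, 17.9, 18.2 and 22.7 on day 1 and 22.1, 24.7, 29.4, 20.2 and 28.3 on day 2. Its day 2 mean was 3.03-fold that of day 0 (log2 fold change 1.60, SE 0.14, edgeR Q = 2.33e-13), the largest rise of any member's coding entry. With its transcript classes summed (described further on) the day 2 rise was 1.07. That was below ECI2 and ACADVL on day 1 (1.58 and 1.34) and SLC25A20 on day 2 (1.36), summed likewise. The coding entry held 51.5% of the counts of ACAD9 on day 0 and 78.0% on day 2. This entry read 8.91, 13.3, 12.5, 16.8 and 14.6 CPM on day 8, where it overlapped day 0. It read 18.1, 15.9, 17.3, 18.3 and 19.4 on day 10 (log2 fold change 1.11). On days 4 and 6, at 17.5, 18.3, 17.5, 19.2 and 19.2 and 11.3, 13.7, 15.1, 14.5 and 10.2 CPM, all libraries were above day 0.

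The 250 bases before the start of ACAD9 are shown because they hold the one canonical E box found before a member's start, a motif bound by the lysosomal regulator TFEB and other basic helix-loop-helix factors. The sequence is RefSeq's on GRCh38.p14 (chr3:128879370-128879619, plus strand), with the E box in capitals, its first base lying 125 bases before the start.
ACAD9: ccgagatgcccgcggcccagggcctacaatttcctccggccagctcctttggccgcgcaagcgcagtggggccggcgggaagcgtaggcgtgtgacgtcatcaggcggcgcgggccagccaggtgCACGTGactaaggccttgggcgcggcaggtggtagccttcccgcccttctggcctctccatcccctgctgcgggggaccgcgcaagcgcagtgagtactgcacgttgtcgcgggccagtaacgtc

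Falls among the dehydrogenases were led by ACAD11, a member that is less studied and is also placed in peroxisomes. It read 39.9, 26.7, 43.1, 27.7 and 28.5 CPM on day 0, 6.91, 16.4, 9.14, 6.35 and 13.2 on day 1, 13.3, 13.3, 9.35, 4.47 and 11.6 on day 2 and 26, 15.8, 20.8, 24.8 and 22 on day 10. Its values were 14, 4.57, 15.1, 12.5 and 17.8 CPM on day 4, 19.7, 4.25, 19.5, 26.9 and 10.9 on day 6 and 18.9, 11.6, 12.8, 20 and 14 on day 8. On days 1, 2, 4 and 8 all 5 libraries were below those of day 0. The log2 fold change was -1.68 on day 1 (SE 0.3, 3.2-fold lower, edgeR Q = 6.27e-06), -1.38 on day 4 and -1.11 on day 8, and on day 10 it was -0.61 and not called (edgeR Q = 0.091) although the libraries did not overlap. ACAD10, another less studied member, fell from 33.3, 36, 32, 29.7 and 32.5 CPM to 16, 19.5, 15.1, 15.6 and 16.1 on day 1 (log2 fold change -0.99, SE 0.12). By day 2 it was back at 24.3, 25.8, 32.1, 23.1 and 32.1 CPM, overlapping day 0 (-0.25, not called), and its day 2 change was called without any one of day 0 replicate 4 and day 2 replicates 3 and 5 (log2 fold change -0.33 to -0.30). From then on its libraries, 41.1, 34.7, 35.5, 29.8 and 30.7 CPM on day 4, 33.4, 34, 30.3, 30.7 and 25.3 on day 6, 39.5, 31.3, 20.7, 29.6 and 26 on day 8 and 32.2, 33.8, 32.9, 34.8 and 32.4 on day 10, overlapped those of day 0.

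ACADSB, which acts on short branched chains from isoleucine, was lower on all 6 days, with log2 fold changes of -0.71 on day 1 and -0.56 on day 10. Its day 4 call (-0.34) was lost without day 0 replicate 1 (log2 fold change -0.28). ACAD8, the isobutyryl-CoA dehydrogenase of valine breakdown, was called lower on days 2, 4 and 6 (-0.54, -0.47 and -0.47), but its libraries overlapped day 0 on every day. The day 2 call was lost without any one of day 0 replicate 2 and day 2 replicate 4 (log2 fold change -0.40 to -0.36). The day 4 call was lost without any one of day 0 replicates 1, 2, 4 and 5 and day 4 replicates 2, 3 and 5 (log2 fold change -0.48 to -0.30), and the day 6 call without any one of day 0 replicates 1, 2 and 5 and day 6 replicates 3 and 5 (log2 fold change -0.49 to -0.32). The short-chain enzyme ACADS had few reads. Its libraries held 6, 5, 7, 8 and 12 counts on day 0, 2, 5, 0, 4 and 4 on day 1, and 2, 4, 8, 3 and 3 on day 2. The later days held 11, 3, 8, 10 and 4 counts (day 4), 10, 0, 6, 3 and 6 (day 6), 10, 8, 9, 6 and 8 (day 8) and 3, 6, 5, 5 and 3 (day 10), all overlapping day 0, with 2 libraries of all days without a count, which allows up to 3. It was called lower on days 1 and 2 (log2 fold change -1.42, SE 0.55, and -1.33, SE 0.53). The day 1 call was lost without any one of day 0 replicate 5 and day 1 replicates 1 and 3 (log2 fold change -1.29 to -1.12), and the day 2 call without any one of day 0 replicates 4 and 5 and day 2 replicates 1, 2 and 4 (log2 fold change -1.30 to -1.07). The medium-chain enzyme ACADM, whose gene overlaps RABGGTB on the same strand, was level, with 17.4, 31.6, 25.7, 18 and 23.5 CPM on day 0, 19.3, 24.4, 23.5, 26.9 and 20.6 on day 1 and 26, 24.3, 20.8, 22.5 and 17.2 on day 10. Its log2 fold changes lay between -0.13 and 0.12 and none was called. The remaining days lay in the same range, at 28.3, 21.3, 23.2, 15.9 and 24.4 CPM on day 2, 26.9, 21.9, 27.3, 15.8 and 24.9 on day 4, 29.5, 27.3, 25.7, 19.4 and 24.6 on day 6 and 18.5, 23.1, 24.5, 20.2 and 19.5 on day 8.

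**Figure D3:**
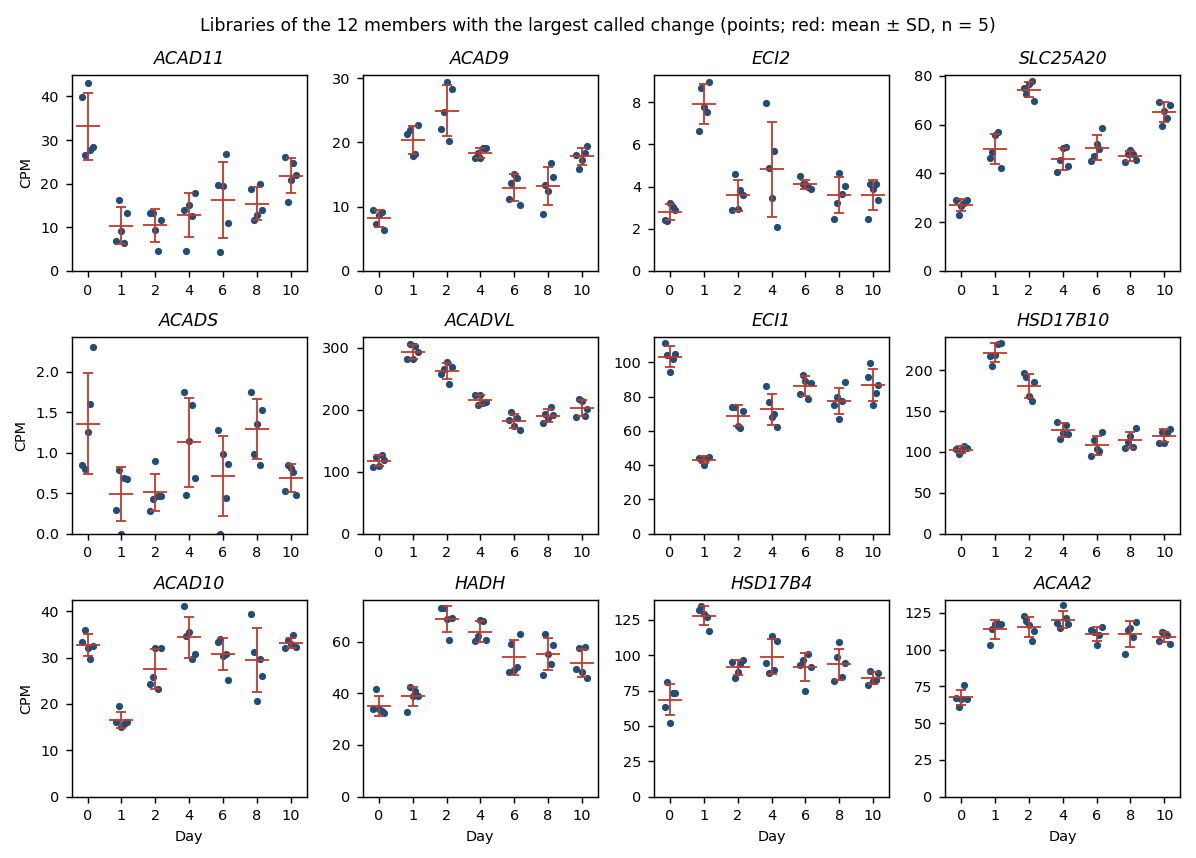
CPM of each library (points) with the mean and SD of 5 libraries (red) by day for the 12 members with the largest called change against day 0. The means of SLC25A20, ACADVL, ACAD9 and ACAA2 stay above day 0, that of ACAD11 stays below it, and the libraries of HSD17B10 overlap day 0 again on day 6.

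Among the enzymes that complete the β-oxidation round in the matrix and those that prepare unsaturated chains for it, 8 of 9 were higher on day 4 and ECI1 was lower. Of all entries, 19% were higher and 20.1% lower on that day. The day 4 calls of HADHA and ECI2 were each lost without 1 library, as given below. The trifunctional protein, built from HADHA and HADHB, hydrates, oxidises and cleaves long acyl chains. The 2 genes are transcribed away from each other on chromosome 2 (HADHA 26190635 to 26244672, minus strand; HADHB 26243170 to 26290465, plus strand), with 306 bases between their RefSeq starts. Their windows of 250 bases before the start are therefore the same DNA over 194 bases, given in capitals below and read from opposite strands (GRCh38.p14, HADHA chr2:26244633-26244882, minus strand, and HADHB chr2:26244689-26244938, plus strand). They are shown because these partner subunits share this DNA between their starts.
HADHA: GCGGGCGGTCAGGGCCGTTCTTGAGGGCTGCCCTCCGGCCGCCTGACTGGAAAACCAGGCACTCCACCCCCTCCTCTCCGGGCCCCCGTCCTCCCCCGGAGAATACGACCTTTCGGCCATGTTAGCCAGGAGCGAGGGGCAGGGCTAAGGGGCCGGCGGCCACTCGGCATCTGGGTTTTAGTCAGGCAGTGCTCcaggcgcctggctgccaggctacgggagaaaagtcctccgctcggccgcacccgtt
HADHB: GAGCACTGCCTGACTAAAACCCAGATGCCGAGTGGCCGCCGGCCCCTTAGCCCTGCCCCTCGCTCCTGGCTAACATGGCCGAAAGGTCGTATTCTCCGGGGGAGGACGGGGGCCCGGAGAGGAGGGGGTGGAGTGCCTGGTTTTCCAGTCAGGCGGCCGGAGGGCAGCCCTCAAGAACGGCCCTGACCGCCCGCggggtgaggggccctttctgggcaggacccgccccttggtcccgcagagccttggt

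HADHB, the thiolase subunit, was higher on all 6 days with log2 fold changes of 0.51 to 0.75, and none of its later libraries overlapped day 0. HADHA, the hydratase and dehydrogenase subunit, was called on day 4 alone (0.34, SE 0.11), and that call was lost without day 4 replicate 3 (log2 fold change 0.27). On the other days HADHA stood at -0.03 to 0.22. In GENCODE the 2 genes overlap on opposite strands, while their RefSeq starts lie apart. The library kit kept the strand, but whether the estimation of counts used it was not tested.

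The other thiolase, ACAA2, which acts on shorter chains, rose and stayed up. It read 67.2, 61.1, 66.3, 76 and 66.6 CPM on day 0, 103, 114, 117, 117 and 117 on day 1, 118, 115, 130.3, 121 and 117 on day 4 and 106, 112, 112, 109.9 and 104 on day 10. On days 2, 6 and 8 the values were 123, 119, 116, 106 and 113, 113, 112, 103, 110.0 and 115 and 96.7, 113, 115, 108 and 119 CPM. None of the 30 later libraries overlapped day 0, and the log2 fold change lay between 0.69 and 0.84 on all 6 days (SE 0.058 on day 4, edgeR Q = 1.23e-15). HADH, the short-chain hydroxyacyl-CoA dehydrogenase, rose a day later. Its libraries read 34, 41.7, 33.8, 33.3 and 32.3 CPM on day 0, 32.8, 42.5, 38.8, 40.8 and 39.1 on day 1, 72.9, 72.9, 69, 60.6 and 69.2 on day 2 and 49.2, 57.4, 48.1, 57.8 and 46 on day 10. Day 1 overlapped day 0 (log2 fold change 0.14, not called), while from day 2 on (0.97, SE 0.088, edgeR Q = 1.23e-12) the groups did not overlap. Days 4, 6 and 8 gave 60.1, 62.1, 68.5, 67.8 and 60.8, 48.3, 59.2, 49, 50.1 and 62.9 and 47.1, 63.1, 55.1, 51.5 and 58.6 CPM. ECHS1, the short-chain hydratase, was higher on days 2 and 4 alone (0.31 and 0.28).

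HSD17B10 (chromosome X, 53431258 to 53434370, minus strand), which also takes part in isoleucine breakdown, had an early and passing rise. It read 104, 97, 101, 107 and 105 CPM on day 0, 218, 205, 218, 232 and 233 on day 1, 196, 191, 168, 163 and 185 on day 2 and 95.3, 114, 104, 102 and 125 on day 6. Day 1 was 2.15-fold day 0 (log2 fold change 1.11, SE 0.066, edgeR Q = 3.18e-18) and all its libraries were above those of day 0. By day 6 the groups overlapped (0.07, not called). The change on day 8 (0.15, not called) was called without any one of day 0 replicate 4 and day 8 replicates 1 and 4 (log2 fold change 0.18 to 0.19), and day 10 was again called (0.22). Its libraries stood at 137, 116, 123, 133 and 122 CPM on day 4 and 111, 124, 111, 123 and 129 on day 10, both above day 0, and at 105, 112, 119, 106 and 129 on day 8, which overlapped it.

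The isomerases, which shift a double bond so that unsaturated chains can be oxidised, moved apart on day 1. ECI1 (chromosome 16, 2239402 to 2252300, minus strand) fell from 111, 104, 94.2, 102 and 105 CPM on day 0 to 44.1, 43.4, 40.1, 44.3 and 44.5 on day 1, and was at 73.9, 74, 63, 61.4 and 71.4 on day 2 and 91.5, 99.4, 75.3, 81.8 and 86.5 on day 10. The days between gave 86.2, 76.6, 67.8, 69.9 and 62.3 CPM (day 4), 81.7, 92.8, 89, 78.7 and 87.9 (day 6) and 75.1, 79.7, 67, 77.1 and 88.3 (day 8). It was 2.38-fold lower on day 1 (log2 fold change -1.25, SE 0.08, edgeR Q = 3.20e-17), and its libraries were below those of day 0 on days 1 to 8 but overlapped them on day 10 (-0.25). ECI2, which is also found in peroxisomes, rose from 2.39, 2.38, 3.22, 3.01 and 2.89 CPM on day 0 to 6.62, 8.66, 7.79, 7.55 and 8.96 on day 1 and was at 2.87, 4.61, 2.93, 3.86 and 3.62 on day 2. The day 1 libraries did not overlap day 0 (log2 fold change 1.51, SE 0.23, edgeR Q = 4.53e-07), but those of day 2 did (0.38, not called). Its day 4 call (0.80) was lost without day 4 replicate 1 (log2 fold change 0.55). It read 7.97, 4.89, 3.45, 5.7 and 2.07 CPM on day 4, 4.48, 4.1, 4.1, 3.96 and 3.88 on day 6, 2.44, 3.21, 4.66, 3.67 and 4.02 on day 8 and 2.46, 4.12, 3.88, 4.13 and 3.37 on day 10, and of these only the day 6 libraries were all above day 0, without a call. DECR1, the mitochondrial dienoyl-CoA reductase for polyunsaturated chains, was higher on days 2, 4, 8 and 10 (0.33 to 0.51), and its day 6 change (0.24, not called) was called without any one of day 0 replicates 1 and 4 and day 6 replicate 3 (log2 fold change 0.28 to 0.30).

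The electron transfer proteins carry electrons from the dehydrogenases to ubiquinone. ETFB was higher on all 6 days, with a maximum of 0.75 on day 2 (SE 0.074, edgeR Q = 1.40e-11) and 0.40 on day 10. Its day 1 call (0.23) was lost without any one of day 0 replicate 3 and day 1 replicate 5 (log2 fold change 0.18). The partner subunit ETFA was called on days 1, 2 and 4 (0.39, 0.40 and 0.28). On days 8 and 10 ETFA stood at 0.18 and 0.21, not called. The day 8 change was called without day 0 replicate 5 (log2 fold change 0.24), and the day 10 change without any one of day 0 replicates 4 and 5 and day 10 replicate 1 (log2 fold change 0.24 to 0.27). ETFDH, the membrane-bound oxidoreductase that receives their electrons, was not called on any day and had its largest value on day 10 (0.30), which was called without any one of day 0 replicate 5 and day 10 replicates 1 and 5 (log2 fold change 0.35 to 0.37) and with its transcript classes summed (0.28).

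Each peroxisomal enzyme had its highest mean on day 1 or day 2, but EHHADH and DECR2 had their lowest mean on day 1. HSD17B4, the bifunctional hydratase and dehydrogenase, measured 63.3, 80.9, 52.2, 73.2 and 73.5 CPM on day 0, 132, 135, 129, 127 and 117 on day 1, 95.2, 83.6, 87.9, 93.9 and 96.4 on day 2 and 79, 88.6, 82, 82.2 and 87.6 on day 10. The log2 fold change was 0.90 on day 1 (SE 0.088, 1.87-fold, edgeR Q = 9.50e-12), when the libraries did not overlap day 0, and 0.29 on day 10, when they did. The day 10 call was lost without day 0 replicate 3 (log2 fold change 0.21). Day 4 at 94.5, 87.3, 114, 89.7 and 110.2 CPM and day 8 at 81.7, 98.8, 109, 84.4 and 94.2 did not overlap day 0, whereas day 6 at 93.1, 96.9, 74.9, 101 and 91.3 did. The peroxisomal thiolase ACAA1 was higher on days 1, 2 and 4 (0.81, 0.67 and 0.34). Its day 4 call was lost without day 0 replicate 2 (log2 fold change 0.27), and its day 8 change (0.26, not called) was called without any one of day 0 replicates 1 and 4 and day 8 replicates 2 and 4 (log2 fold change 0.31 to 0.33). EHHADH, the second bifunctional enzyme, was called on day 2 alone (0.68, SE 0.27), a call lost without any one of day 0 replicates 1, 2 and 3 and day 2 replicates 1, 4 and 5 (log2 fold change 0.53 to 0.68).

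DECR2 and ACOX3 changed least in this class. DECR2, the peroxisomal dienoyl-CoA reductase, measured 19.8, 13.3, 18.1, 12.4 and 17.1 CPM on day 0, 12.3, 14.3, 12.5, 14.6 and 8.28 on day 1, 24.5, 22.5, 21.9, 21.9 and 21.4 on day 2 and 15.8, 19, 17.3, 18 and 15.1 on day 10. It was lower on day 1 (-0.39, overlapping day 0) and higher on day 2 (0.47, not overlapping). The day 1 call was lost without any one of day 0 replicate 1 and day 1 replicate 5 (log2 fold change -0.31 to -0.29). Days 4, 6 and 8, at 19.3, 15.9, 18.5, 17 and 16.9, 9.72, 15, 14.6, 14.2 and 14.8 and 18.3, 18.5, 13.1, 14.8 and 16.7 CPM, overlapped day 0. Its gene overlaps NME4 on the same strand. ACOX3, an oxidase of branched-chain acyl-CoA, read 15.8, 16, 15.4, 16 and 15.2 CPM on day 0, 22.2, 19.7, 15.9, 18.7 and 18.9 on day 1, 17.4, 12, 13.5, 13.4 and 14.9 on day 2 and 17.2, 19.6, 11.5, 15.3 and 14.3 on day 10. It was not called against day 0 on any day, with log2 fold changes from -0.19 to 0.29, the last of which was called without day 1 replicate 3 (log2 fold change 0.34) and with its transcript classes summed (0.39). Its libraries read 14.8, 11.2, 13.5, 18.2 and 11.4 CPM on day 4, 16.1, 9.72, 12.9, 17.6 and 15.1 on day 6 and 13.3, 14.7, 15.9, 12.7 and 12.1 on day 8, and every day overlapped day 0.

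The acyl-CoA synthetases each had a course of their own. ACSL4, which prefers arachidonic acid, was higher on all 6 days, from 0.73 on day 2 (SE 0.07, edgeR Q = 5.99e-12) to 0.20 on day 10. The day 10 call was lost without any one of day 0 replicate 3 and day 10 replicates 2 and 5 (log2 fold change 0.15 to 0.19). ACSL5, found on mitochondria and the endoplasmic reticulum, was higher on days 1 and 2 (0.74 and 0.72) and lower on day 6 (-0.24), a call lost without any one of day 0 replicate 1 and day 6 replicates 1 and 2 (log2 fold change -0.20 to -0.17). ACSL3, an enzyme of the endoplasmic reticulum and lipid droplets, measured 40.5, 43.6, 42, 37.9 and 39.1 CPM on day 0, 51.6, 46.1, 56.9, 58.8 and 51.4 on day 1, 33, 32.9, 37.1, 39 and 33.3 on day 4 and 32.5, 45.5, 43.6, 33.6 and 39.6 on day 10. It was above day 0 on days 1 and 2 with no overlap (0.38 and 0.31) and called lower on day 4 (-0.21), with overlap. That day 4 call was lost without any one of day 0 replicates 1, 2, 3, 4 and 5 and day 4 replicates 1, 2 and 5 (log2 fold change -0.22 to -0.16). It read 49.8, 49.3, 50, 49.7 and 52.7 CPM on day 2, and 34.1, 40.3, 34.7, 36.6 and 39.5 and 36.7, 39.2, 40.1, 36.5 and 46.7 on days 6 and 8, which overlapped day 0. ACSL1, the synthetase most tied to oxidation in muscle and fat, was not called higher on any day. Its libraries read 54.4, 51.7, 55.4, 59.1 and 63.9 CPM on day 0, 53.5, 53.5, 57.9, 51.3 and 56.3 on day 1, 33.6, 37.4, 38.6, 40.2 and 41.4 on day 4 and 43.1, 43.5, 38.6, 42 and 45.7 on day 10. All libraries of days 4 and 10 were below those of day 0 (-0.57, SE 0.069, and -0.42, SE 0.068). Days 2, 6 and 8 overlapped day 0, at 49.9, 47.4, 46.6, 46.9 and 52.9, 47.1, 50.1, 48.7, 42.9 and 52.3 and 55.9, 52.4, 54.2, 49.5 and 45.8 CPM, and the first 2 of these were called lower (-0.22 and -0.24).

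Whether fatty acid oxidation transcripts rose in the later stage of recovery was addressed by setting day 10 beside day 2, the low point of viable cells in the study. On day 10, 3 of 32 members were higher and 14 lower than on day 2, where 16.5% of all entries were higher and 18.8% lower, and the median log2 fold change of the members was -0.13. Of the 12301 entries that passed the filter on low counts, 2824 were higher and 3318 lower. With size factors from relative log expression the counts of members were 5 and 13. The 3 higher were 5 without any one of day 2 replicates 3 and 5 and day 10 replicates 1 and 5. Those called were ACAD11 (1.05), ECI1 (0.34) and CPT1A (0.13). ACAD11 and ECI1 had been lower than day 0 on day 2, whereas CPT1A had been above it. The call of CPT1A was lost without any one of day 2 replicate 1 and day 10 replicate 3 (log2 fold change 0.12). The members do not stand for the whole pathway. Of 50 other genes of fatty acid metabolism (described further on), 10 were higher and 10 lower on day 10 than on day 2. Among them, 5 of 11 mitochondrial enzymes were higher and 3 lower (median log2 fold change 0.37). Of 9 genes of fatty acid entry, 2 were higher and 4 lower (median -0.62).

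All 4 synthetases were lower on day 10 than on day 2 and none of their libraries overlapped, where 15% of all entries lay below without overlap, with log2 fold changes of -0.71 for ACSL5 (SE 0.077), -0.53 for ACSL4, -0.36 for ACSL3 and -0.19 for ACSL1. The call of ACSL1 was lost without any one of day 2 replicates 2, 3 and 5 and day 10 replicates 1 and 3 (log2 fold change -0.18 to -0.16). Of the 5 peroxisomal members, ACAA1 (-0.53), DECR2 (-0.39) and EHHADH (-0.69) were lower and none was higher. The call of DECR2 was lost without day 10 replicate 5 (log2 fold change -0.32), and that of EHHADH without any one of day 2 replicates 1, 3, 4 and 5 and day 10 replicates 1, 3 and 5 (log2 fold change -0.70 to -0.54). Of the 23 mitochondrial members, 7 were lower, among them HSD17B10 (-0.59), ACAD9 (-0.49), HADH (-0.41) and ACADVL (-0.37). SLC25A20 was lower by 0.19 on the log2 scale, a call lost without any one of day 2 replicates 1, 2, 3 and 4 and day 10 replicates 1, 2, 4 and 5 (log2 fold change -0.19 to -0.15).

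**Figure D4:**
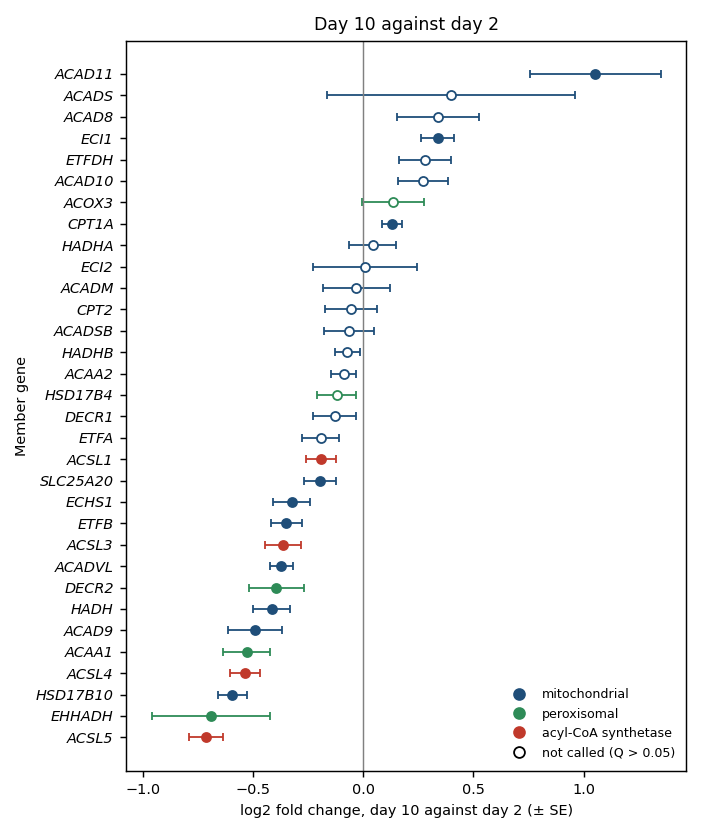
Log2 fold change of day 10 against day 2 with its SE (bars) for the 32 members, in order of size and coloured by class; filled points have Q at or below 0.05. The 4 synthetases lie below 0, and ACAD11, ECI1 and CPT1A are the called members above it.

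Between neighbouring time points most of the movement lay early. From day 1 to day 2, 10 members rose and 6 fell (20.2% and 19.4% of all entries), with HADH (0.83), ECI1 (0.67), ACAD10 (0.74) and DECR2 (0.85) rising and ECI2 (-1.14) falling by the most among those whose libraries did not overlap. From day 2 to day 4, 2 rose and 11 fell (13.9% and 16.7%). The 11 included all 4 synthetases, by -0.58 to -0.35, each without overlap (12.8% of all entries), as well as SLC25A20 (-0.69) and HSD17B10 (-0.52). From day 4 to day 6, 2 rose and 7 fell (6.09% and 5.98%), and ACSL1 was one of those that rose (0.33). The count of 9 called members was 5 without day 4 replicate 3. Between days 6 and 8 no member was called by edgeR or DESeq2 (the latter gave no adjusted p for 3) and none had an unadjusted p under 0.05, beside 2.56% of all entries called. From day 8 to day 10, 3 rose and 1 fell, where 5.08% of all entries rose and 4.97% fell. SLC25A20 (0.46) and ETFDH (0.37) rose and ACSL1 (-0.28) fell without overlap, and ACAD9 (0.42) was called higher with overlap. The call of ACAD9 was lost without any one of day 8 replicates 1, 2 and 3 and day 10 replicates 1, 4 and 5 (log2 fold change 0.32 to 0.43), and that of ETFDH without any one of day 8 replicates 2, 4 and 5 and day 10 replicates 2, 3 and 4 (log2 fold change 0.33 to 0.36). The count of 4 was 2 without day 8 replicate 2 or day 10 replicate 4.

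The count table also lists non-coding transcript classes of a gene as entries of their own, so that the protein-coding entry is only part of a gene's RNA. Of 67 such entries of the members, 42 passed the filter on low counts. For HADHA the class annotated as subject to nonsense-mediated decay held more reads than the coding class, 147 ± 13.7 CPM on day 0 (SD, n = 5), and it was higher on all 6 days. Its log2 fold changes were 0.20, 0.54, 0.51, 0.40, 0.30 and 0.48 from day 1 to day 10. With the classes summed, HADHA was called higher on days 2, 6, 8 and 10 as well. The nonsense-mediated decay class of ETFA was likewise higher on all 6 days, by 0.58 to 0.93. With the classes summed, ETFA was called higher on days 6, 8 and 10 as well (0.36, 0.40 and 0.36). In all, 18 changes of members against day 0 became called, in the same direction, with the classes summed.

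ACADVL gained reads in its other classes as well on day 1. The decay class went from 17.9 ± 1.92 to 95.9 ± 11.7 CPM (2.42) and the retained-intron class from 79.9 ± 7.38 to 162 ± 29.7 CPM (1.02). By day 8 its retained-intron class was below day 0 (-0.36) while the coding class was still above. ACAD11 differed, since its retained-intron class was lower on day 1 (-0.47) but higher on days 6 and 8 (0.72 and 0.61), days on which the coding class was lower. With its classes summed, ACAD11 was at 0.08 on day 6 and -0.06 on day 8, neither called. Other coding calls lost with summed classes were those of ACAA1, ACADSB and ACSL3 on day 4 (0.14, -0.23 and -0.15), DECR2 on day 1 (-0.16) and ACAD8 on day 6 (-0.09). On day 1, 2 of the 18 retained-intron entries of members were higher and 5 lower (8.68% and 33.9% of all such entries), and of the 15 decay entries 3 were higher and none lower (13.3% and 13.7%). How the estimation of counts divides reads among classes that share exons was not tested.

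**Figure D5:**
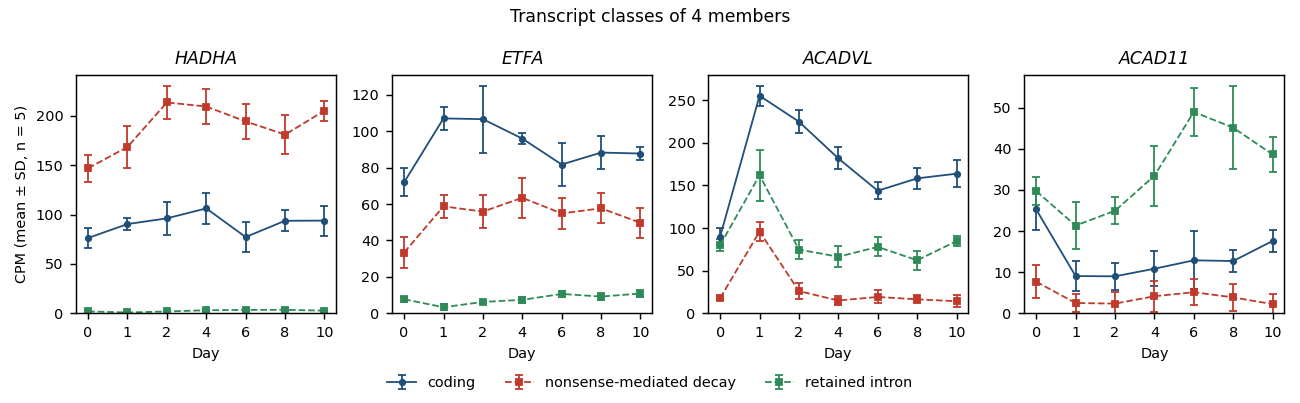
CPM (mean and SD of 5 libraries, scaled to all transcript classes) by day of the coding, nonsense-mediated decay and retained-intron entries of HADHA, ETFA, ACADVL and ACAD11. The decay entry of HADHA lies above its coding entry on every day, and the retained-intron entry of ACAD11 exceeds its day 0 level on days 6 and 8.

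Other genes of fatty acid metabolism were taken from a list of 53, of which 50 had counts. On day 1, 15 were higher and 13 lower, beside 25.4% and 27.3% of all entries, and on day 10, 14 were higher and 3 lower, beside 16.1% and 15.8%. Day 2 had 14 and 10 (23.2% and 24.4% of all entries), and day 4 had 13 and 5 (19% and 20.1%). Day 6 had 12 and 3 (17.5% and 17%), and day 8 had 12 and 5 (18.2% and 18.6%). SLC27A4, a fatty acid transport protein, rose from 32.2 ± 2.65 to 89.9 ± 5.58 CPM (1.47), ABCD3, which brings acyl-CoA into peroxisomes, from 16.9 ± 2.41 to 54.8 ± 3.8 (1.70), and ACACB, which makes the malonyl-CoA that inhibits CPT1, from 1.41 ± 0.303 to 6.6 ± 1.62 (2.22). GCDH, of lysine breakdown, the fatty acid binding protein FABP5 and the regulator TFEB also rose (1.16, 1.06 and 1.01).

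In the other direction on day 1, PHYH, the first enzyme of α-oxidation, fell from 16.9 ± 2.19 to 5.57 ± 0.742 CPM (-1.60), the peroxisomal transporter ABCD2 from 16.1 ± 2.82 to 5.68 ± 0.483 (-1.49), and MCEE, which handles propionyl-CoA products, from 24 ± 2.88 to 8.88 ± 1.3 (-1.43). PECR, a peroxisomal reductase, was at 1.51 ± 0.553 and 0.377 ± 0.52 CPM (-1.90). Of the listed genes with a mean log2 CPM below 0, ACOX2, a peroxisomal oxidase, was called higher on day 1, with no count in any day 0 library and a mean of 0.205 ± 0.372 CPM on day 1. The regulator PPARGC1A was called lower, at 0.337 ± 0.396 and 0.0315 ± 0.0704 CPM, and both were named after their values were seen. The call of ACOX2 was lost without any one of day 0 replicates 1, 2, 3, 4 and 5 and day 1 replicates 3 and 4, and that of PPARGC1A without any one of day 0 replicates 4 and 5 and day 1 replicates 1, 3, 4 and 5 (log2 fold change -2.66 to -1.86). Of the 11 peroxisomal genes in the list, 5 were higher and 5 lower on day 1, beside 25.4% and 27.3% of all entries. ABCD3 and ECH1 were higher and PHYH and ABCD2 lower on day 10, beside 16.1% and 15.8% of all entries. The call of ECH1 (0.21) was lost without any one of day 0 replicate 3 and day 10 replicates 2 and 4 (log2 fold change 0.14 to 0.19). Of the 11 mitochondrial ones, 2 were higher and 4 lower on day 1, but 5 were higher and none lower on day 10. The shares of all entries on these days were those just given. On day 10 the fatty acid receptor CD36 was higher, at 5.88 ± 0.697 against 2.38 ± 0.73 CPM (1.28). Of the 12 regulators in the list, ESRRA was higher and PPARA lower on day 10 (0.16 and -0.31, named after their values were seen), and the call of ESRRA was lost without any one of day 0 replicate 4 and day 10 replicates 1 and 2 (log2 fold change 0.14 to 0.15).

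RefSeq promoter windows were on hand for 26 of the 32 members. The 250 bases before each start and the 50 bases after it were searched on both strands. The motif AGGTCA, bound by nuclear receptors such as the PPARs, was present for ACAD10 and ACSL5, beside 13.8% of all 35116 windows. No member held AGGTCA, any base and AGGTCA again (0.0228% of all windows), or the site of the estrogen-related receptors, TCA directly followed by AGGTCA (0.353%). Both of these contain the shorter motif. The E box CACGTG was found before ACAD9 alone, beside 7.26% of all windows. These matches describe the letters of short windows and not the binding of a factor.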

How the data were processed

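The deposited table held whole-number estimated counts per symbol and transcript biotype for 84647 entries in 35 libraries. The authors made these estimated counts from paired-end reads of a strand-specific kit with kallisto 0.44.0 on GRCh38.p12 transcripts, corrected them for GC bias and summed them with adjustment for transcript length; their own tests used DESeq2 1.25.8 in R 3.5.0. Reads of overlapping or shared exons are divided by that estimation, which can move counts between biotypes of a gene.

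Here, edgeR 4.0.16 (R 4.3.3, limma 3.58.1) was run on the 17999 of 19665 protein-coding entries that had at least 1 count, with TMM factors (0.929 to 1.08) and 1 coefficient a day, on the 35 libraries together. Quasi-likelihood tests compared each day with day 0, day 10 with day 2 and neighbouring time points. P-values were adjusted by Benjamini-Hochberg over all entries (Q), and calls were made at Q of at most 0.05. CPM used the same scaling. Entries of every biotype that passed filterByExpr (26617) were fitted in the same way. The statistics were tested on simulated data.

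The members and lists were chosen with earlier results of these data known. Values of every library are given for the 12 members with the largest called change and for the 2 of each class with the smallest, and of the other pathway genes those called on day 1 or 10 past 2-fold with a mean log2 CPM above 0 were named, 12 at most. CPT1A is given per library besides, chosen after its values were seen. Alternatives were relative log expression or no scaling factors, filterByExpr, DESeq2 1.42.0, a replicate block, only the days compared, summed biotypes, a 2-fold cutoff, a prior count of 2 in place of 0.125, a change of class of 2 members, and leaving out each library. Counts of libraries within a day differed by more than sampling noise (chi-square per degree of freedom 2.47 to 9.21 over 70 pairs). Gene coordinates and transcript lengths were taken from GENCODE release 44 and promoters from RefSeq on GRCh38.p14.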

Additional observations from a re-analysis of the deposited data

Results flagged for a closer look

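Dixon's test was applied to each member on each day, and 7 of 224 groups of 5 libraries held a library whose gap to its neighbour was over 0.71 of the group's range. Chance flags about 1 in 20 groups. The libraries were high for ACAD10 on day 1 (19.5 CPM in replicate 2, 15.1 to 16.1 in the others), HADH on day 0 (41.7 CPM in replicate 2, 32.3 to 34 in the others) and ACSL3 on day 2 (52.7 CPM in replicate 5, 49.3 to 50 in the others). They were low for ACAA2 on day 1 (102.9 CPM in replicate 1, 114 to 117 in the others) and ECI1 on day 1 (40.1 CPM in replicate 3, 43.4 to 44.5 in the others). DECR1 on day 0 was low in replicate 5 (23.7 CPM, 35.2 to 38.7 in the others), and DECR2 on day 6 in replicate 1 (9.72 CPM, 14.2 to 15 in the others).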

How the results depend on the processing

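No alternative changed the direction of a called change of the protein-coding entries. With counts summed over all biotypes, which adds other transcripts by construction, ACAD11 on day 6 was 0.076 and HADHA on day 6 was 0.27, opposite in sign to their coding entries, and 17 members in place of 11 were higher on day 8. The members higher on day 10 than on day 2 were 5 in place of 3 with relative log expression factors, filterByExpr, the libraries of those days alone, DESeq2 or summed biotypes. Without scaling factors, the members lower than day 0 were 3 in place of 6 on day 2 and 3 in place of 6 on day 4, and 14 in place of 9 were called between days 4 and 6. The cause of these differences was not tested. With a 2-fold cutoff, 4 members were higher and 3 lower on day 1, 3 and 2 on day 2, 1 and 1 on day 4, 0 and 1 on days 6 and 8, 2 and 0 on day 10, and 1 and 0 between days 2 and 10.

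Leaving out 1 library at a time gave 3 to 6 members lower on day 4, 2 to 5 higher and 11 to 13 lower on day 10 than on day 2, 5 to 12 called between days 4 and 6, and 2 to 4 between days 8 and 10. The whole time course called 25 to 27. Of 114 calls against day 0, 16 of 13 members were lost without some library, and 8 were gained.

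Replicate numbers were shared between days, but no label ties a number to a shared source, and they were not taken to pair the libraries. The deviations of libraries with the same number had a median correlation of 0.0012, with 1 of 105 pairs over 0.1, beside 8 of 420 pairs with different numbers. As a hint from the data and not the design, 14 of 35 libraries correlated best with their own number. With the replicate block 26 members in place of 27 were called over the time course, 13 in place of 12 were higher on day 10, and of single calls ACAD8 on day 6 (-0.46) was lost and ETFA on day 10 (0.21) gained. Low counts limit ACADS, EHHADH and ECI2 in particular, and 1 library a subculture of 1 line limits the reach of every test.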
